A study of Mus musculus with 48 samples.

Results

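Chromatin accessibility was compared between CD8 T cells carrying a guide RNA against Zfp219 and cells carrying the guide that the labels name as the OTC control, in progenitor exhausted (Tprog) cells from tumours of young mice. The samples were chosen by their titles: 2 Zfp219 libraries and 2 OTC libraries, 4 of the 48 libraries of the series. All 53868 peaks of the table were used, as log2(value + 1), so no peak was chosen by its value. Both groups were CD8+ T cells from CD45.1 OT-1 mice that also carry Cas9, and their receptor recognises an ovalbumin peptide. A lentiviral vector delivered the guide and an ametrine reporter, and sorted ametrine+ cells were moved into young hosts a day before inoculation of B16-OVA, a mouse melanoma line that makes ovalbumin. Cells were sorted from the tumours 15 days after inoculation. The Tprog gate was Slamf6 positive and Tim-3 negative. The Zfp219 cells are labelled Zfp219KO, and the OTC cells carry Cas9, a guide and the reporter too. Each replicate is a pool of sorted cells from independent mice, and 5000 to 50000 cells were used per genotype and gate. Which mice entered which pool is not given in the sources used here, so p-values measure only the spread between replicate libraries, which may be technical. That spread was estimated over all 48 libraries of the series, not from these 4 alone. Other groups used below are Zfp219 and OTC cells of the young Ttran gate (Slamf6+ Tim-3+) and Tterm gate (Slamf6- Tim-3+), Zfp219 and OTC Tprog cells of aged hosts, and Dusp5 Tprog cells of young hosts.

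Zfp219 encodes a zinc-finger transcription factor of the Krüppel type that is best known as a partner of Sox9 in cartilage. Progenitor exhausted T cells depend on the factor Tcf7, renew themselves in tumours and chronic infection, and give rise to the cytotoxic and terminally exhausted cells. ATAC-seq uses the Tn5 transposase to cut and tag open DNA, so a peak often marks a promoter or enhancer that proteins can reach. In such pools, fewer cells of a type and less signal per cell cannot be told apart.

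The 4 libraries held 9764589 to 18493537 reads in peaks, against 5638413 to 29942755 over the series, and the Zfp219 libraries were the shallower pair, at 13047103 and 9764589 against 18493537 and 15520213. Across peaks, log2 values correlated at r = 0.952 between the Zfp219 replicates, at 0.961 between the OTC replicates and at 0.947 to 0.956 between libraries of different groups. The 2 replicates of a group differed by more than sampling noise (chi-square per degree of freedom 3.85 and 4.53), so neither pair looked like 1 library deposited again. All 4 peaks assigned to Zfp219 were below the threshold for a call. The peak over its promoter had 979 and 887 normalized reads in the Zfp219 libraries against 962 and 992 in the OTC libraries (log2 fold change -0.07, SE 0.09, adjusted p = 0.823). Small guide-made changes in coding sequence do not have to alter a peak, so these values do not check the label. At the sorting genes, the strongest Slamf6 peak had 421 and 347 against 389.7 and 369.6 and the strongest Havcr2 peak, the gene of Tim-3, had 678 and 667 against 656 and 688, and neither was called (log2 fold changes 0.01 and 0.00). Cd8a, Cd8b1, Cd3e and Cd3g had strong peaks in both groups, and among genes of other cells Cd79a, Ms4a1, Csf1r, Lyz2, Adgre1, Tyr, Dct, Tyrp1 and Foxp3 had no peak assigned, nor had the T cell gene Trac. Other genes of those lists had peaks, with a mean in the Zfp219 libraries of 719 at Pmel, 594 at Fcgr1, 503 at Cd68, 375 at Pax5 and 969 at Pecam1 for the strongest.

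Where accessibility differed, it was mostly lower in cells with the Zfp219 guide. Of the 53868 peaks, 537 (0.997%) differed, 400 lower (0.743%) and 137 higher (0.254%) in Zfp219 cells (limma, all 48 libraries in the fit, Benjamini-Hochberg adjusted p under 0.05). The lower peaks were strong and fell by little. Their median log2 fold change was -0.50, or 0.707 times the OTC level, at a median of 529 normalized reads over the series. The higher peaks were weaker and moved further, with a median log2 fold change of 1.11, or 2.15 times, at a median of 116 normalized reads. All peaks together had a median log2 fold change of -0.01 and a median of 93.9 normalized reads. Lower peaks were also wider, with a median of 1348 bp against 825 bp for higher and 900 bp for all peaks. A promoter window, from 250 bases before to 50 after a RefSeq start site, lay under 66 of the lower peaks (16.5%), 11 of the higher (8.03%) and 17.2% of all peaks. The 2 Zfp219 and the 2 OTC libraries did not overlap at 534 of the 537 called peaks and at 40.6% of all peaks.

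The number of called peaks rests on few libraries. It was 278 (159 lower, 119 higher) without the first OTC library and 155 (91 lower, 64 higher) without the second. It was 264 (219 lower, 45 higher) without the second Zfp219 library and 559 (475 lower, 84 higher) without the first. The share that was higher thus ran from 15.03% to 42.8%, against 25.5% with all 4. With the spread estimated from these 4 libraries alone the count was 35. In direction, 534 of the 537 peaks kept their sign under all 14 alternative settings. The peaks called the same way after leaving out each of the 4 libraries in turn numbered 26, with 19 lower and 7 higher, and these are described next. Every called peak named outside these 26 lost its call without at least 1 of the 4 libraries.

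**Figure D1:**
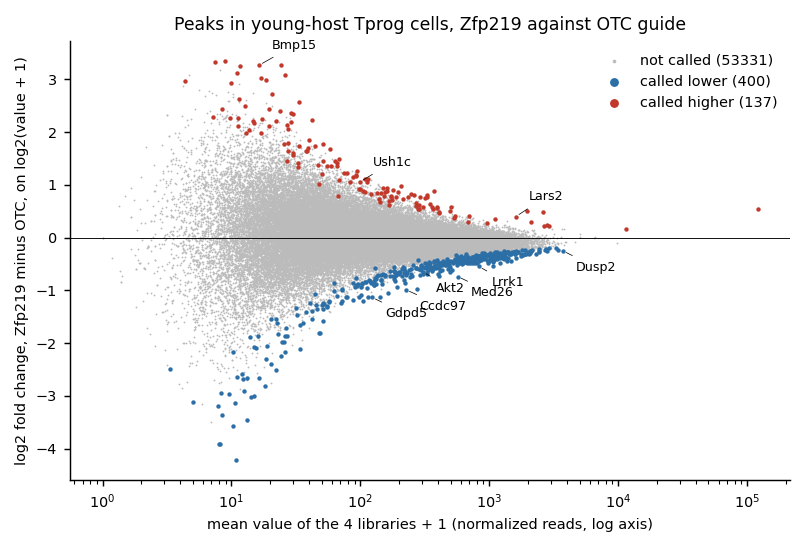
Each point is a peak. The horizontal axis is the mean value of the 4 libraries plus 1 in normalized reads (log axis), and the vertical axis is the log2 fold change of Zfp219 against OTC cells on the log2(value + 1) scale. The 400 lower peaks (blue) reach into the strong peaks on the right with small falls, and many of the 137 higher peaks (red) are weak with large rises.

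Among these 26 peaks, 17 lower ones had an assigned gene. The smallest adjusted p of a lower peak was at Lrrk1, which encodes a leucine-rich repeat kinase, where a peak in the gene body (chr7:66373551-66377449, mm10) had 663 and 683 normalized reads in the Zfp219 libraries against 979 and 987 in the OTC libraries (log2 fold change -0.55, SE 0.08, adjusted p = 3.34e-06). Both Zfp219 libraries lay well below both OTC libraries. Tgfb1, the gene of the cytokine TGF-beta 1, had 2 such peaks. The one over its promoter had 1625 and 1627 normalized reads in the Zfp219 libraries against 2003 and 2089 in the OTC libraries (log2 fold change -0.33, SE 0.06, adjusted p = 0.000724). The one 2021 bp beyond the gene had 834 and 862 against 1123 and 1169 (log2 fold change -0.43, SE 0.08, adjusted p = 0.00076). The Zfp219 replicates were close together at both Tgfb1 peaks, and the groups did not overlap. Dusp2, a nuclear phosphatase that switches off ERK and p38 kinases and is induced by T cell activation, had the strongest promoter peak of the set, with 3428 and 3366 normalized reads in the Zfp219 libraries against 4036 and 4053 in the OTC libraries (log2 fold change -0.25, SE 0.05, adjusted p = 0.00128). That fall is small, yet larger than the gap between replicates of either group. At Cd82, a tetraspanin of the T cell surface, a peak inside the gene had 1186 and 1149 against 1484 and 1678 (log2 fold change -0.43, SE 0.07, adjusted p = 0.000148). At Akt2, a kinase of the insulin and PI3K pathway, a peak inside the gene had 229.9 and 244 against 375 and 369.6 (log2 fold change -0.65, SE 0.13, adjusted p = 0.00207). Both genes were lower in each Zfp219 library.

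Larger falls came from weaker peaks. A peak within Ccdc97, which lies beside Tgfb1, had 174 and 129 against 310.2 and 287 (log2 fold change -0.99, SE 0.16, adjusted p = 0.000218). A peak 10038 bp from Abhd2, a lipid hydrolase gene, had 186 and 182 against 335 and 396 (log2 fold change -0.98, SE 0.17, adjusted p = 0.000263). Peaks inside Gdpd5, Dlg2, Ccdc88c and Sh2d4b fell by similar amounts (log2 fold changes -1.13, -1.13, -1.12 and -1.08). The other lower peaks with a gene were at Rftn1, which encodes a lipid raft protein of lymphocytes, Elovl1, a fatty acid elongase, Igfbp7, Slco4a1 and Atp5o, with log2 fold changes from -0.51 to -0.41.

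Of the 7 higher peaks, 2 lay on unplaced scaffolds, where read placement is uncertain. The strongest peak of the whole table, 45856 bp on the unplaced scaffold JH584304, had 139736 and 145419 normalized reads in the Zfp219 libraries against 99449 and 96362 in the OTC libraries (log2 fold change 0.54). Quantile scaling puts its fold change at 0, since it is the strongest peak of each library. It took 1.08% and 1.12% of the signal of the Zfp219 libraries and 0.751% and 0.726% of that of the OTC libraries. Of the 110 peaks on scaffolds outside the assembled chromosomes, 4 were called (3.64%), against 0.997% of all peaks, and all 4 were higher. These included one on GL456392, with 3015 and 3086 against 2209 and 2135. Lars2, a mitochondrial leucyl-tRNA synthetase gene, rose at a peak inside the gene, with 1777 and 1879 against 1373 and 1395 (log2 fold change 0.40, SE 0.06, adjusted p = 3.46e-05). A peak inside Ush1c doubled, with 131 and 134 against 61.6 and 65.0 (log2 fold change 1.05, SE 0.20, adjusted p = 0.00094). Peaks near Rimbp3 and Bmp15 and a peak with no gene within 100 kb on chromosome 17 complete the set. Whether placement of reads from repeated sequence moved with the guide was not tested.

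The 250 bases before the start site are printed for 4 promoters under lower peaks, since a promoter gives a called peak a defined sequence. Tgfb1 and Dusp2 stayed called after each library was left out in turn, Runx3 had several lower peaks (below), and Med26 had the smallest adjusted p among promoters. The sequences come from RefSeq, build GRCm38.p6, and are written 5′ to 3′ on the strand of the gene, ending at the base before the start site. Capitals mark the RUNX motif TGTGGT or its reverse ACCACA and runs of at least 5 G or C (GGGGG or CCCCC), the only motifs marked.
Tgfb1: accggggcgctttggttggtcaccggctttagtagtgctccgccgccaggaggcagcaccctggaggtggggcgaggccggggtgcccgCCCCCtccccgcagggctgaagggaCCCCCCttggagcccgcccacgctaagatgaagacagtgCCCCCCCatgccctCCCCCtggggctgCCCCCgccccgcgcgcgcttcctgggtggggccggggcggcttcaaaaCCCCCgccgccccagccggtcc
Dusp2: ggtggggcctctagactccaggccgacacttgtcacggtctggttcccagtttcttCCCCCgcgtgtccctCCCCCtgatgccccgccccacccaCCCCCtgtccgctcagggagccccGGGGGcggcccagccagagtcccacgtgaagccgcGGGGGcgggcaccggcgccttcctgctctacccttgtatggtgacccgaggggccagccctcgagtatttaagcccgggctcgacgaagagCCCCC
Runx3: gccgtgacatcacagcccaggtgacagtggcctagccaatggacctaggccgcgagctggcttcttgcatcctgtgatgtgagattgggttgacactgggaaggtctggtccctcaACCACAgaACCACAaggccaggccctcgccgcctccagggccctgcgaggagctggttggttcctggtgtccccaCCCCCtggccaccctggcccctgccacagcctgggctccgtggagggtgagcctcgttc
Med26: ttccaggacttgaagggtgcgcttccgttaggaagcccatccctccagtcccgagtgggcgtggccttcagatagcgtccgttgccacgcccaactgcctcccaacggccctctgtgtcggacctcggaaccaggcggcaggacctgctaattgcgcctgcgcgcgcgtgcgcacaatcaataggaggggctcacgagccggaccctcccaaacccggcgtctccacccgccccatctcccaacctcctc
They lie at chr7:25686752-25687001, chr2:127335909-127336158 and chr4:135120395-135120644 on the plus strand and at chr8:72548311-72548560 on the minus strand. The Tgfb1 and Dusp2 sequences hold several G or C runs and no RUNX motif. The Runx3 sequence holds 2 RUNX motifs and 1 C run, and the Med26 sequence holds neither. Over the 66 promoters under lower peaks, a G or C run was present in 48 (72.7%), against 60.4% of the 9253 promoters under any peak. The RUNX motif was present in 12 of the 66 (18.2%), against 10.95% of the 9253. The ETS motif CCGGAAG or its reverse was present in 5 of the 66 (7.58%), against 14.3%, and in 5 of the 11 promoters under higher peaks. Median GC content was 64.4% in the lower and 60.8% in all promoters. The other motifs searched on both strands were TCF/LEF CTTTGAA, AP-1 TGANTCA, NFAT TGGAAA, KLF GGGTGTG, T-box AGGTGTGA and NR4A AAAGGTCA, with the IRF motif searched too, and each was present in at most 6 of the 66. Of these, NR4A was present in 3 (4.55%), against 0.713% of the 9253, and TCF/LEF in 0, against 2.98%. These shares describe the sequences and were not tested.

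At Med26, a subunit of the Mediator complex that links RNA polymerase II to elongation factors, the promoter peak had 548 and 321 normalized reads in the Zfp219 libraries against 749 and 656 in the OTC libraries (log2 fold change -0.74, SE 0.11, adjusted p = 4.13e-05). The second Zfp219 library was far below the first. Without that library the log2 fold change was -0.35 with an adjusted p of 0.213, so the call rests on it. Over the 14 alternative settings the adjusted p ran from 2.92e-10 to 0.213, and 13 called the peak.

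Other lower promoter peaks included those of Il21r, Cd82, Rara and Zbtb7b, described below, and of Elovl1, named above. The 11 higher promoter peaks included Mastl, Kat2a and H1f3. At Mastl, a mitotic kinase that shares its promoter peak with Yme1l1, the values were 1235 and 1224 against 963 and 965 (log2 fold change 0.35, SE 0.09, adjusted p = 0.0227). At Kat2a, the histone acetyltransferase GCN5, they were 134 and 125 against 65.2 and 71.0 (log2 fold change 0.92, SE 0.25, adjusted p = 0.0408). At H1f3, a linker histone, they were 864 and 710.4 against 583 and 598 (log2 fold change 0.41, SE 0.10, adjusted p = 0.0251). The groups did not overlap at any of these 3 promoters.

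Several genes lost accessibility at more than 1 peak. Called peaks were assigned to 454 genes, of which 38 had at least 2 and 8 had at least 3. Of the 38, 26 had only lower peaks. The loci below were picked for their called peaks, and of all peaks 0.743% were called lower and 50.8% had a log2 fold change below 0. Runx3, the factor that fixes the CD8 lineage and drives cytotoxic and resident programmes, had 4 lower of its 23 peaks, and 20 of the 23 had a log2 fold change below 0 (median -0.23). A peak inside the gene had 522 and 511 normalized reads in the Zfp219 libraries against 751 and 689 in the OTC libraries (log2 fold change -0.48, SE 0.10, adjusted p = 0.0026). A second had 792 and 806 against 996 and 1102, the promoter had 2211 and 2299.8 against 2629.8 and 2628, and a peak 39624 bp outside the gene had 1330.1 and 1377 against 1633 and 1645. The 2 groups did not overlap at any of these peaks, though the falls at the promoter and the outside peak (log2 fold changes -0.22 and -0.28) passed the threshold narrowly. Under the 14 alternative settings they were called in 2 and 6, and both peaks inside the gene in 12.

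Vgll4, a transcription cofactor that competes with YAP for TEAD factors, had 4 lower of 16 peaks and 15 of 16 below 0. Its most changed peak had 353 and 264 normalized reads in the Zfp219 libraries against 559 and 456 in the OTC libraries (log2 fold change -0.72, SE 0.14, adjusted p = 0.00203). Its strongest called peak had 1369.8 and 1417 against 1712 and 1941 (log2 fold change -0.39, SE 0.07, adjusted p = 0.000365). Cd82 had 4 lower of 14 peaks and 11 of 14 below 0, its promoter among the lower at 1407 and 1409 against 1644 and 1772 (log2 fold change -0.28, SE 0.07, adjusted p = 0.0351). Sik1, a salt-inducible kinase that restrains CREB coactivators, had 4 lower of 25 peaks and 18 of 25 below 0. The 4 lay outside the gene body, between 1697 and 54234 bp from it. The nearest had 1149.7 and 1239 against 1455 and 1454 (log2 fold change -0.28, SE 0.08, adjusted p = 0.045).

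Rara, the retinoic acid receptor alpha gene, had 3 lower of 9 peaks. The strongest had 2228 and 1905 normalized reads in the Zfp219 libraries against 2547 and 2565 in the OTC libraries (log2 fold change -0.31, SE 0.06, adjusted p = 0.000672). Its promoter peak had 419 and 331 against 504 and 536. Nfatc2, which encodes the calcium-activated factor NFAT1, had 3 lower of 19 peaks. The most changed of them had 302 and 366 against 589 and 439.8 (log2 fold change -0.61, SE 0.13, adjusted p = 0.00521). The OTC libraries were spread widely there, and both lay above both Zfp219 libraries. Dusp5, which encodes a nuclear phosphatase of ERK, had 3 lower of 17 peaks, with log2 fold changes from -0.55 to -0.32. One inside the gene had 256 and 275 against 385 and 393. Nav1, a neuron navigator gene, had 2 lower peaks and 1 higher of 10.

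**Figure D2:**
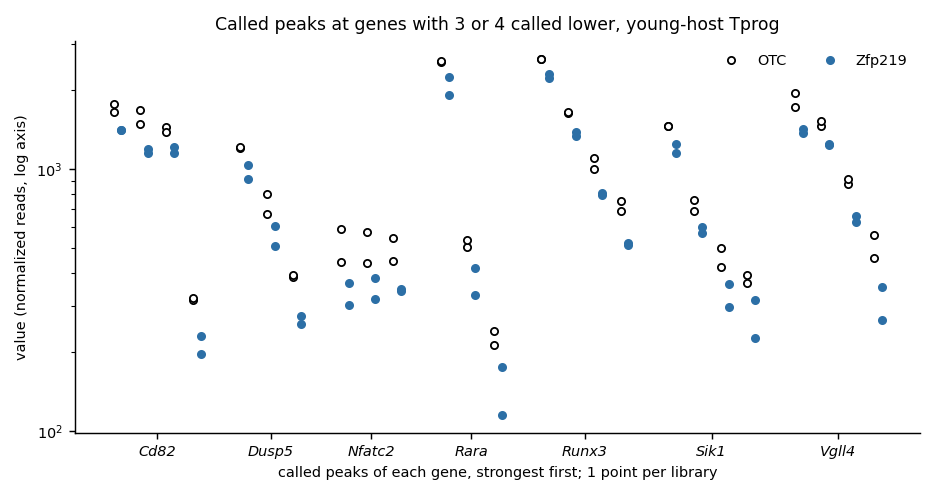
Each column of points is a called peak, ordered by strength within its gene, with the value of each of the 2 OTC libraries (open) and 2 Zfp219 libraries (blue) in normalized reads on a log axis. At Cd82, Dusp5, Nfatc2, Rara, Runx3, Sik1 and Vgll4 both Zfp219 points lie below both OTC points at each peak shown.

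Gene lists were read against the 0.997% of all peaks that were called and the 12.4% that had an unadjusted p under 0.05. Of genes that keep progenitor cells, only Foxo1 had a called peak among 16 genes and 190 peaks (0.526%). Foxo1 maintains Tcf7 and homing genes in resting T cells, and a peak inside it fell, with 145 and 171 against 280.1 and 216 (log2 fold change -0.64, SE 0.17, adjusted p = 0.0438). Tcf7, Lef1, Bach2, Myb, Id3 and the other genes of that list had no called peak, and the list's median log2 fold change was -0.02. Effector genes such as Gzmb, Prf1, Ifng and Tbx21 had 0 called of 135 peaks by limma, with 27 at an unadjusted p under 0.05 (20%) and a median of -0.04. At Gzma, which stands first in the list, the promoter peak had 247 and 292 against 260.0 and 292 (log2 fold change -0.04, SE 0.18, adjusted p = 0.969).

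Of 18 exhaustion genes, 2 had called peaks (3 of 171 peaks, 1.75%). Nr4a3, an immediate-early nuclear receptor of the T cell response, fell at 2 of them. The peak 158 bp from the gene had 127 and 86.3 normalized reads in the Zfp219 libraries against 216 and 219 in the OTC libraries (log2 fold change -1.05, SE 0.23, adjusted p = 0.00587). The peak 77033 bp away had 34.7 and 30.5 against 55.9 and 104 (log2 fold change -1.20, SE 0.30, adjusted p = 0.0214). At both, the Zfp219 libraries lay below the OTC libraries. Tox, the factor that establishes exhaustion, rose at 1 peak inside the gene, with 105 and 163 against 57.3 and 87.3 (log2 fold change 0.88, SE 0.23, adjusted p = 0.0367). Both Zfp219 libraries lay above both OTC libraries, but each pair of replicates was spread widely.

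T cell receptor signalling genes had 5 called of 222 peaks (2.25%), each of them lower, 3 of them at Nfatc2, and a median of -0.11. Lck, the kinase that starts receptor signalling, fell at a peak inside the gene, with 548 and 586 normalized reads in the Zfp219 libraries against 739 and 758 in the OTC libraries (log2 fold change -0.40, SE 0.10, adjusted p = 0.0351). Dual-specificity phosphatase and Sprouty genes, which brake the MAP kinases that the receptor starts, had 4 called of 96 peaks (4.17%), each lower, at Dusp2 and Dusp5, and a median of -0.11. AP-1 genes had 0 called of 78 peaks by limma, 11 at an unadjusted p under 0.05 (14.1%, 10 of the 11 lower) and a median of -0.11. The Jun promoter had 2695 and 2929 against 2786 and 2628 (log2 fold change 0.05, SE 0.06, adjusted p = 0.795).

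Cytokine receptor genes had 3 called of 130 peaks (2.31%), each lower, with a median of -0.07. Il21r, the receptor for interleukin 21, fell at its promoter, with 758 and 667 normalized reads in the Zfp219 libraries against 939 and 904 in the OTC libraries (log2 fold change -0.37, SE 0.08, adjusted p = 0.00936). Near it, a peak 1020 bp from Il4ra, the interleukin 4 receptor alpha gene, had 992 and 888 against 1265 and 1147 (log2 fold change -0.36, SE 0.08, adjusted p = 0.0103). Il2rb, the beta chain shared by the interleukin 2 and 15 receptors, had 477 and 447 against 604 and 628 at a peak inside it (log2 fold change -0.41, SE 0.10, adjusted p = 0.023). All 3 were lower in both Zfp219 libraries than in either OTC library.

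Cell cycle genes had 2 called of 84 peaks (2.38%), both lower, at the G1 kinase gene Cdk6 (238 and 232 against 292 and 344, log2 fold change -0.43, SE 0.10, adjusted p = 0.0169) and at its cyclin gene Ccnd3 (307 and 260.3 against 416 and 439.8, log2 fold change -0.60, SE 0.14, adjusted p = 0.0185). Homing genes had 2 of 116 (1.72%), lower at Selplg, the selectin ligand PSGL-1, with 1159.6 and 1183 against 1497 and 1474 (log2 fold change -0.34, SE 0.08, adjusted p = 0.0174), and at Itga1, an integrin of resident cells, at the weak level of 12.9 and 7.97 against 37.3 and 41.9 (log2 fold change -1.86, SE 0.51, adjusted p = 0.0473). Glycolysis and hypoxia genes had 1 of 68 (1.47%), a peak beside Hif1a with 25.8 and 22.6 against 59.5 and 91.5 (log2 fold change -1.57, SE 0.43, adjusted p = 0.0479). The listed interferon-stimulated genes had 0 called of 30 peaks by limma, with 7 at an unadjusted p under 0.05 (23.3%). Oas3, a gene of that kind outside the list, had a called peak inside it. That peak had 1000 and 758 against 1242 and 1277 (log2 fold change -0.53, SE 0.09, adjusted p = 0.000627). The chondrogenic genes of Sox9 and its partners had 0 called of 57, with 2 at an unadjusted p under 0.05 (3.51%). Ifit1, at 216 and 199 against 186 and 260.1, and Sox5, at 624 and 587 against 673 and 641, were below the threshold (adjusted p = 0.929 and 0.688). The members were chosen with earlier results of these data known, so the counts describe the lists and are not tests of them.

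**Figure D3:**
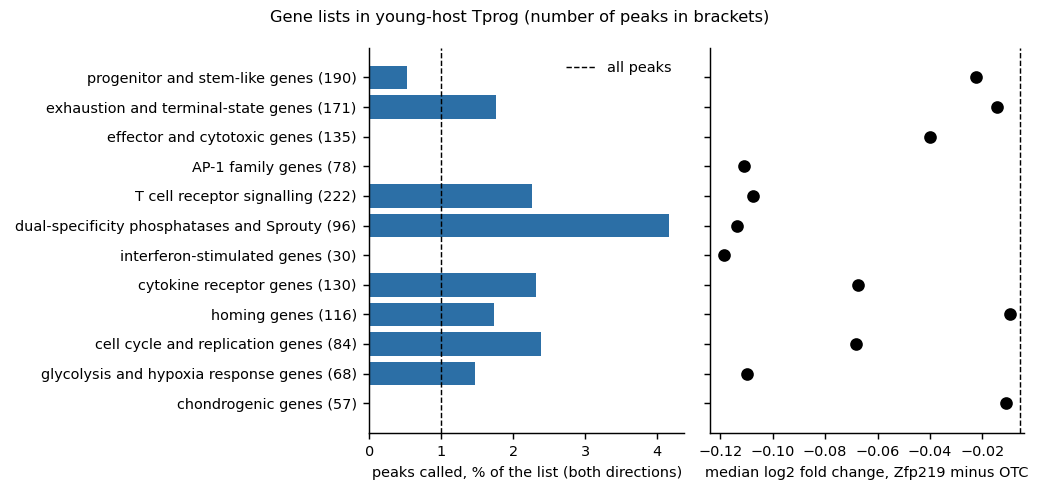
The left panel gives the share of each list's peaks that were called in either direction (bars, from 0) and the right panel the median log2 fold change of the list, with the number of peaks in brackets and all peaks as dashed lines. The phosphatase and Sprouty list has the tallest share, at 4.17%, and the effector, AP-1, interferon and chondrogenic lists have none.

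Of the 106 peaks of other cell types' genes, 2 were called (1.89%), against 0.997% of all peaks. Zbtb7b, the CD4 lineage factor, fell at its promoter, with 501 and 554 against 605 and 753 (log2 fold change -0.36, SE 0.10, adjusted p = 0.0453). Pecam1, the adhesion molecule CD31 of endothelium and some leukocytes, rose at 1 of 13 peaks, with 36.7 and 45.1 against 12.9 and 11.98 (log2 fold change 1.63, SE 0.34, adjusted p = 0.00437). Summed over its list, CD8 T cell gene signal was 21155 and 21719 in the Zfp219 libraries and 23073 and 23159 in the OTC libraries. B cell gene signal was 1173 and 1515 against 1258 and 1105. Myeloid gene signal was 4090 and 4022 against 3884 and 3817. Natural killer gene signal was 6866 and 6991 against 6846 and 6791. Melanoma gene signal was 1608 and 1682 against 1730.1 and 1650.4. Stromal gene signal was 3582 and 3524 against 3524 and 3429, and CD4 and regulatory T cell gene signal was 3107 and 3195 against 3605 and 3852. The part of these in the results was not tested.

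The largest changes by fold lay at weak peaks. Falls among peaks with an assigned gene, averaging at least 20 normalized reads in OTC cells, were led by one inside Dnajb11, a chaperone gene of the endoplasmic reticulum, with 0.991 and 1.33 normalized reads in the Zfp219 libraries against 18.6 and 27.4 in the OTC libraries (log2 fold change -3.45, SE 0.74, adjusted p = 0.00528). Next came a peak 53476 bp from Bhlhe40, a factor of cytokine-producing T cells, with 6.94 and 0 against 15.8 and 29.9 (log2 fold change -3.01, SE 0.70, adjusted p = 0.0127). A peak 52691 bp from Rasl11b had 5.95 and 0 against 12.9 and 27.4. The second Zfp219 library, the shallowest of the 4, was at 0 at both. Hhip and Uncx were also at 0 there and at 14.9 and 12.9 in the first. Inside Runx2, a relative of Runx3, a peak had 12.9 and 1.33 against 34.4 and 21.4 (log2 fold change -2.31, SE 0.54, adjusted p = 0.0128). The others of the 12 largest falls, 1 per gene, were at Agbl2, Eml4, Otud4, Smim20, Stn1 and Slc2a10, with log2 fold changes from -2.39 to -1.98. A peak on chromosome 16 with no gene within 100 kb, 1 of the 26 above, fell by as much, with 1.98 and 2.66 against 24.4 and 26.5 (log2 fold change -3.00).

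Among peaks with an assigned gene, averaging at least 20 normalized reads in Zfp219 cells, the largest rise was 60806 bp from Bmp15, an ovarian growth factor gene, with 37.7 and 19.9 normalized reads in the Zfp219 libraries against 1.43 and 2.57 in the OTC libraries (log2 fold change 3.27, SE 0.56, adjusted p = 0.0003). A peak 2699 bp from Alas1, the first enzyme of haem synthesis, had 28.7 and 54.4 against 8.60 and 0.856 (log2 fold change 3.27, SE 0.63, adjusted p = 0.00159). Sidt1, an RNA channel gene, had 41.6 and 37.2 against 0 and 21.4 (log2 fold change 3.09, SE 0.57, adjusted p = 0.00094), with 0 in one OTC library and 21.4 in the other. Fam166c, Nelfcd, Adcy5, Optn, Dpf3, Depdc5, Sdsl and Slc8b1 rose by log2 fold changes from 2.35 to 3.04, each from fewer than 20 normalized reads in either OTC library. D430041D05Rik had 49.6 and 42.5 against 4.30 and 14.5 (log2 fold change 2.37, SE 0.43, adjusted p = 0.000724). At these levels a few reads set the fold.

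The other sorted states and the aged hosts were used to ask whether the same peaks moved in other libraries. These comparisons share no library with young Tprog cells, and whether their cells came from the same mice is not given in the sources used here. Zfp219 against OTC gave 3167 called peaks in young Ttran cells (5.88%), 148 in young Tterm cells (0.275%) and 1378 in aged Tprog cells (2.56%). With the spread estimated from the compared groups alone these counts were 892, 1378 and 1617, and with library quality weights 1614, 1496 and 1824. Young Tprog cells had 35 and 304 under these settings, so the order of the counts depends on how the spread is estimated. The Ttran count was 1934 without the second OTC library and 1863 without the third. The Tterm count was 38 to 58 without each of its 6 libraries in turn, and the aged count 427 to 880 without each of its 4. Of the 400 peaks lower in young Tprog cells, 152 (38.0%) were also called lower in Ttran cells, where 4.23% of all peaks were. They are 6.68% of the Ttran list. In Tterm cells 32 of the 400 (8.0%) were called lower, against 0.195% of all peaks, and are 30.5% of that list. In aged Tprog cells 32 (8.0%) were called lower and 5 higher, against 1.45% and 1.11% of all peaks. The sign was the same for 84.2% of the 400 in Ttran, 87.5% in Tterm and 63.5% in aged Tprog cells, against 51.2%, 49.1% and 51.3% of all peaks. The median log2 fold change of the 400 was -0.24, -0.16 and -0.08 there. The 400 were stronger than all peaks, with medians of 529 and 93.9 normalized reads over the series. Shares of all peaks given here and below are not matched for level.

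Of the 137 higher peaks, 18 (13.1%) were called higher in Ttran cells, against 1.65% of all peaks, in Tterm cells 5 (3.65%), against 0.0798%, and in aged Tprog cells 3 (2.19%), against 1.11%. They kept their sign in 62.0%, 74.5% and 48.9%, against 48.8%, 50.9% and 48.7% of all peaks. Across all peaks, the fold changes of young Tprog cells had a Pearson correlation of 0.11 with Ttran, 0.19 with Tterm and 0.03 with aged Tprog cells. Over the 26142 peaks with a mean of at least 100 normalized reads the values were 0.27, 0.32 and 0.07. Peaks are not independent, so these values only describe the scatter.

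**Figure D4:**
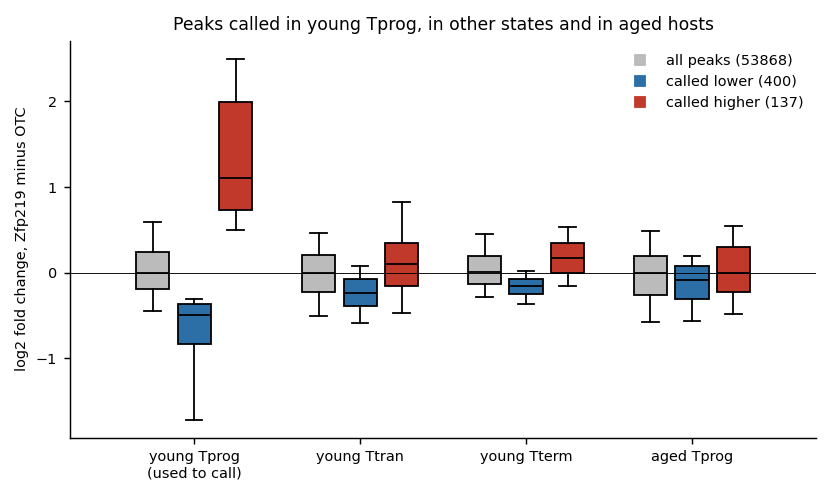
Boxes give the median and quartiles, and whiskers the 10th and 90th percentiles, of the log2 fold change of Zfp219 against OTC cells in 4 comparisons, for all peaks (grey), the 400 lower (blue) and the 137 higher (red) peaks of young Tprog cells. The first group of boxes was used to choose the peaks. In young Ttran and Tterm cells the blue boxes lie below 0, and in aged Tprog cells the blue box spans 0.

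Young Tprog, Ttran and Tterm cells had 537, 3167 and 148 called peaks of 53868. Of these, 31 were called the same way in all 3 gates. Vgll4 had the largest fall of these by its weakest comparison, with log2 fold changes of -0.72 in Tprog, -1.04 in Ttran and -0.73 in Tterm cells, and -0.07 in aged Tprog cells (adjusted p = 0.892). Nr4a3 had -1.05, -0.70 and -0.84 in the young gates and 0.03 in aged Tprog cells. The Vgll4 and Nr4a3 differences between young and aged Tprog cells were not called. Adgrg1, an adhesion receptor of cytotoxic lymphocytes, had -0.71, -0.61 and -0.52. Cd82 fell in all 3 gates at 2 peaks. Single peaks at Smad3, which carries TGF-beta signals, and Tnfrsf1b, the gene of TNF receptor 2, fell in all 3 (Tprog log2 fold changes -0.31 and -0.31). The retinoid-related receptor gene Rora fell in the 3 young gates and in aged Tprog cells at 2 peaks. The stronger had 854 and 771 normalized reads in the Zfp219 libraries against 1069 and 1118 in the OTC libraries (log2 fold change -0.43, SE 0.08, adjusted p = 0.00159). Its log2 fold change was -0.45 in aged Tprog cells (adjusted p = 0.000231). Of the loci with 4 lower peaks in Tprog cells, Ttran cells had 9 of 16 Vgll4 peaks called lower, 7 of 25 at Sik1, 6 of 23 at Runx3 and 6 of 14 at Cd82. In aged Tprog cells the numbers were 0, 3, 1 and 1. Rising peaks among the 31 were D430041D05Rik, one inside Erg (log2 fold change 0.60) and the JH584304 peak.

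A test of the difference itself was made. The effect in young Tprog cells differed from the mean effect in young Ttran and Tterm cells at 36 peaks (0.0668%), 23 more positive (0.0427%) and 13 more negative (0.0241%) in Tprog cells. At the Med26 promoter the difference was -0.73 (adjusted p = 0.00713), with a log2 fold change of 0.18 in Ttran and -0.21 in Tterm cells. That difference carries the second Zfp219 library, on which the Med26 call rests. The rises near Alas1 and inside Sidt1, Fam166c, Adcy5, Dpf3 and Slc8b1 also exceeded those of the other gates, by 2.59 to 3.71 on the log2 scale. The balance turned without either Zfp219 library, with 25 more positive and 110 more negative of 135 without the first and 2 and 4 of 6 without the second. The count was 22 without the second OTC library.

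The effect in young Tprog cells differed from that in aged Tprog cells at 568 peaks (1.05%), 238 more positive (0.442%) and 330 more negative (0.613%) in young cells. Of the 568, 128 were themselves called in young Tprog cells, 44 higher and 84 lower, and 0.997% of all peaks were. Most of the 568 thus had no called effect in young Tprog cells. At Lrrk1 the log2 fold change was -0.55 in young and 0.26 in aged hosts, both called, with a difference of -0.81 (adjusted p = 1.01e-06). At the Il21r promoter the values were -0.37 and 0.13 (difference -0.51, adjusted p = 0.0152). At Med26 they were -0.74 and 0.22 (difference -0.96, adjusted p = 0.000207). The called Runx3, Vgll4, Cd82, Tgfb1 and Nr4a3 peaks did not pass this test. The count was 250 without the second OTC library, 356 without the first and 335 without the second Zfp219 library.

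Young Tprog cells with the Dusp5 guide gave a second reference from the same hosts and gate. Zfp219 against Dusp5 cells gave 1022 called peaks (1.90%), 343 higher (0.637%) and 679 lower (1.26%) in Zfp219 cells. It was 416 without the second Dusp5 library and 474 without the second Zfp219 library. Without the first Dusp5 library the balance turned, with 511 higher and 453 lower. This comparison shares the Zfp219 libraries with that against OTC, so values are only set side by side. Against Dusp5, 141 of the 400 lower peaks were called lower (35.25%) and 25 of the 137 higher peaks higher (18.2%). The reverse call was made at 0 of the 400 and 1 of the 137. The falls at Il21r (-0.37 against OTC and -0.36 against Dusp5), Adgrg1 (-0.71 and -0.86) and the far Tgfb1 peak (-0.43 and -0.45) were called against both. The Tgfb1 promoter was -0.16 against Dusp5 and was not called (adjusted p = 0.173). Lrrk1 was -0.13 against Dusp5 (adjusted p = 0.479), Dusp2 -0.12 (adjusted p = 0.183) and the most changed Vgll4 peak -0.30 (adjusted p = 0.304), and none of these 3 peaks was called. The strongest of the 4 Vgll4 peaks was -0.30 and was called (adjusted p = 0.00637). Of the 12 largest rises, D430041D05Rik alone was called against Dusp5 (2.25, adjusted p = 0.00055). At Bmp15 the Dusp5 libraries had 23.2 and 21.6 normalized reads and at Depdc5 31.7 and 31.3, near the Zfp219 and above the OTC values. Dusp5 against OTC shares the OTC libraries. There 30 of the 137 higher peaks were called higher (21.9%) and 27 of the 400 lower peaks lower (6.75%). All peaks had 0.381% and 0.401%, and 1 peak of each set was called the other way. Peaks at Lrrk1 (-0.42), Sh2d4b (-0.71) and Cd82 (-0.27) were among the 27.

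The peaks that mark the progenitor and terminal ends were defined in Dusp5 libraries, which are not part of the Zfp219 against OTC comparison, and made up 29.8% of all peaks. Of 8257 peaks more open in Tprog than in Tterm cells there, 56 were called in Zfp219 against OTC Tprog cells (0.678%), 13 higher and 43 lower, with a median log2 fold change of 0.00. Of 7807 peaks more open in Tterm cells, 177 were called (2.27%), 47 higher and 130 lower, with a median of -0.04. All peaks had 0.997% called and a median of -0.01. The median level was 131 normalized reads for progenitor-open, 185 for terminal-open and 93.9 for all peaks. The shares called are not matched for level. The mean log2 level of progenitor-open minus terminal-open peaks was 0.63 and 0.65 in the Zfp219 libraries and 0.57 and 0.57 in the OTC libraries. Both Zfp219 libraries lay nearer the progenitor end. In aged Tprog cells the order was the other way, at 0.50 and 0.49 for Zfp219 and 0.60 and 0.59 for OTC. In young Ttran cells Zfp219 libraries ran from -0.68 to -0.66 and OTC libraries from -0.60 to -0.57, and in young Tterm cells from -1.01 to -0.998 against -1.10 to -1.08. With 2 libraries a group an exact two-sided permutation test cannot go below p = 0.333, so no test is given for young Tprog cells.

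**Figure D5:**
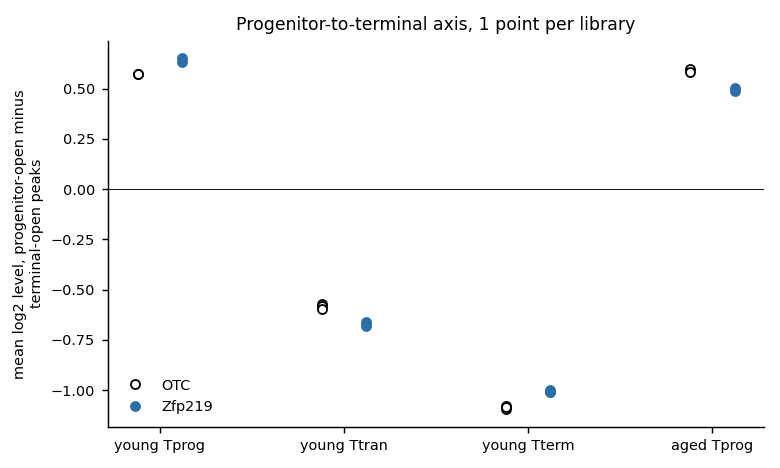
Each point is a library, and the vertical axis is its mean log2(value + 1) over progenitor-open peaks minus that over terminal-open peaks, with OTC open and Zfp219 blue. In young Tprog cells the Zfp219 points (0.63 and 0.65) lie above the OTC points (0.57 and 0.57), and in aged Tprog cells they lie below.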

How the data were processed

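ATAC-seq reads were 50 bases from each end, per the labels. The submitters' processing notes name Bowtie2 2.2.9, Picard 2.8.0, SAMtools 1.3.1, MACS2 2.1.1, DESeq2 1.28.1 and the build mm10, with no roles. The authors deposited 1 signal table of 53868 peaks by 48 libraries. Each library's values are multiples of its own smallest step (100% whole, relative tolerance 1e-06), equal to reads divided by a median-of-ratios size factor, so the text calls them normalized reads. Duplicate removal, shifting of insertion sites and whether peaks were called on pooled samples are not given in the sources used here. Counting error covers only part of the spread between libraries.

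From these values, limma 3.58.1 (R 4.3.3; lmFit, eBayes with trend, a mean per group, all 48 libraries) was run on log2(value + 1), with Benjamini-Hochberg adjustment over all peaks and calls under 0.05; the pseudocount understates changes of weak peaks. The alternatives tried were a pseudocount of 8, dropping the 25% of peaks with the lowest mean, other scalings, other sets of libraries, quality weights, a replicate block, each library left out, and edgeR 4.0.16 on the recovered reads. The fits were also run on simulated data, drawn with the same replicate spread over counting noise in every group. That run does not cover groups of unequal spread.

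A peak belongs to the protein-coding gene whose promoter window or body it overlaps, else the nearest within 100 kb (51108 peaks; RefSeq, GRCm38.p6, the build of mm10). Where gene bodies overlap, as at Gzma, Ifit1 and Zfp219, the peak may belong to either. The rule for named peaks took those of Zfp219, the 12 largest rises and 12 largest falls among called peaks with an assigned gene and a mean of at least 20 in the higher group, 1 per gene, up to 3 called peaks per list, the sorting genes and 5 peaks called in 3 gates. A further 56 peaks, called without each library, at genes with at least 3 called peaks or otherwise named, were chosen after their values were seen. The Oas3 peak was chosen so too, and is outside that number and the counts of named peaks. Members, lists and rules were chosen with earlier results of these data known. The planned motif search in peaks was replaced by one in the 250 bases before start sites under peaks, since only promoter sequence was used here.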

Additional observations from a re-analysis of the deposited data

Results flagged for a closer look

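Effects of the Zfp219 guide that differed between states or ages by limma's test of the difference are listed here, and the tests were those of the fit of all 48 libraries. The effect in young Tprog cells differed from the mean of young Ttran and Tterm cells at 36 peaks and from aged Tprog cells at 568 peaks. Of these, 34 and 128 were called in young Tprog cells themselves.

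Among weak peaks that rose in young Tprog cells, the difference from the other young gates was 3.71 near Alas1, 3.71 inside Dpf3, 3.42 inside Sidt1, 3.06 inside Fam166c, 2.60 inside Slc8b1 and 2.59 inside Adcy5 (log2 scale). The difference from aged Tprog cells was 4.67 near Alas1, 3.77 inside Depdc5, 3.23 near Optn and 3.02 inside Fam166c. For weak peaks that fell, it was -3.82 at the Hhip promoter and -2.51 near Slc2a10. A peak on chromosome 16 with no gene within 100 kb had -3.47 against the other gates and -3.60 against aged cells, with 1.98 and 2.66 against 24.4 and 26.5 normalized reads in Zfp219 and OTC libraries.

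Of stronger peaks, the Med26 promoter had -0.73 against the other gates and -0.96 against aged cells, and Abhd2 had -0.86 against the other gates. Both Med26 values carry the second Zfp219 library, without which the Med26 log2 fold change in young Tprog cells was -0.35. Against aged cells the difference was -0.81 at Lrrk1, -0.51 at the Il21r promoter, -0.95 at Sh2d4b, -1.22 at Gdpd5 and -0.44 at Atp5o, and it was 1.31 at Ush1c, 0.52 near Rimbp3 and 0.55 at Lars2. Pecam1 had 1.75 against the other gates and 1.91 against aged cells. The unplaced JH584304 peak had 0.44 against both, the GL456392 peak had 0.35 against the other gates and 0.42 against aged cells, and the chromosome 17 peak had 0.40 against the other gates and 0.56 against aged cells.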

How the results depend on the processing

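For Zfp219 against OTC in young Tprog cells, the 537 called peaks became 420 to 559 under a larger pseudocount, removal of the weakest peaks, both other scalings, young libraries only and edgeR with either scaling. They became 304 with quality weights, 35 with the compared groups alone and 155 to 559 without each library. No called peak among those named changed sign. Of the named peaks that were not called, 7 had values on both sides of 0, at Gzma, Ifit1, Slamf6, Havcr2, Jun and 2 of the 4 Zfp219 peaks. Of 1533 values of named peaks under alternatives, 1137 kept their side of the threshold and 396 lost the call. The 36 peaks whose effect differed from the other young gates became 12 with a pseudocount of 8, 14 with young libraries only, 13 with quality weights, 1 with the compared groups alone and 6 to 135 without each library. Rescaling made 74.2% of them more positive in place of 63.9%, and it was 18.5% and 33.3% without the first and the second Zfp219 library. The 568 peaks that differed from aged cells became 274 with the compared groups alone and 250 to 582 without each library. Against Dusp5, the 1022 became 186 with the compared groups alone, 387 with quality weights and 416 to 964 without each library. In young Ttran cells, the 3167 became 892, 1614 and 1863 to 3005 in the same order. In young Tterm cells, the 148 became 1378, 1496 and 38 to 58, and 276 and 301 by edgeR with TMM and the authors' factors. Quantile scaling gave 86 there, 39.5% higher in place of 29.1%. In aged Tprog cells the 1378 became 427 to 880 without each library. The cause of these shifts was not tested. Quality weights kept all 48 libraries in the fit, and young Tterm cells gained calls with the compared groups alone. The Zfp219 libraries hold 9764589 and 13047103 reads in peaks, so falls at weak peaks rest on few reads.

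With the replicate number as a block, 528 peaks were called in young Tprog cells. Same-numbered Zfp219 and OTC libraries did not deviate together across peaks (correlation of replicate differences -0.0023). That value takes all peaks, weak ones included, so it cannot show whether same-numbered pools share mice. Which mice entered which pool is not given in the sources used here, and the main fit paired no libraries.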
